A study of Mus musculus with 6 samples.

Results

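The genes described here encode the contractile apparatus of smooth muscle, followed in cultures of the endothelium of mouse brain microvessels (BMVECs in the labels), which lines the capillaries and forms the blood-brain barrier. They are the 10 genes Acta2, Actg2, Myh11, Myl9, Cnn1, Tagln, Smtn, Cald1, Lmod1 and Des, taken by symbol from the 54532 genes of the deposited expression table; each symbol had a row. The cells were wild type, from C57BL/6J mice, and were grown to confluence from vessel fragments under early puromycin selection. They were either left untreated (libraries A0, B0 and D0, untreated 1 to 3) or given DEVD mIL-36β, a processed form of the IL-1 family cytokine IL-36β, at 100 ng/ml for 24 h (A24, D24 and E24, IL-36β 1 to 3). No time or vehicle is labelled for untreated cells, so time in culture and IL-36β cannot be told apart. Whether each library had its own animal or culture is not labelled, and the p-values therefore cover only library-to-library spread. The series title names the question as endothelial IL-36 receptor signalling in the stability and permeability of vessels of the central nervous system.

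Smooth muscle contracts when myosin, a motor made of heavy chains and light chains, pulls on actin filaments after its regulatory light chain is phosphorylated. Calponin, caldesmon, transgelin and smoothelin bind the actin filament, leiomodin starts new filaments, and desmin forms intermediate filaments that tie the apparatus together. Many of these genes are switched on by serum response factor (SRF), which binds the CArG box in DNA, together with its myocardin-family partners. The proteins are abundant in the smooth muscle cells around vessels, and actin filaments and myosin light chains are also used by endothelial cells under tension.

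The actin coding sequences are shown first because the 6 actin genes of the mouse are alike and short reads could be shared between them. Each run is a 60-base stretch from GENCODE M21 (build GRCm38), starting 1100 bases before the end of the coding sequence without its stop codon. Capitals mark bases that differ from Acta2 at the same distance from that end.
Acta2: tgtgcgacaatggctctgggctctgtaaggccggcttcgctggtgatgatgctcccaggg
Actg2: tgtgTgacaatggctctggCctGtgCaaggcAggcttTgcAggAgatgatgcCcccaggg
Acta1: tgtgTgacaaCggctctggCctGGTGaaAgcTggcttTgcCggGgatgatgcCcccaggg
In this stretch Actg2 differed from Acta2 at 9 of 60 bases and Acta1, the skeletal muscle actin, at 13. Over the coding sequences aligned at their ends, Acta2 was 83.8% identical to Actg2 and 85.4% identical to Acta1. No 50-base window of the Actg2 transcript, and 0.352% of those of the Acta2 transcript, occurred exactly in any of the other 5 actin transcripts. The handling of reads that match several places is not stated in the labels.

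Promoter sequence was searched for the 7 members with an entry in the RefSeq promoter table (GRCm38.p6). Actg2, Myh11 and Tagln had no entry and were not searched. The 250 bases before each start were searched on both strands for the CArG box and for MCAT, the binding sequence of TEAD factors. The CArG box was taken as CCWWWWWWGG, where W is A or T, with no mismatch allowed. MCAT was taken as CATTCC, or GGAATG on the other strand. Cald1 has 2 windows, so there were 8. The matches are shown on the gene's own strand with 25 bases on each side and the motif in capitals.
Myl9, CArG box, chr2:156775278-156775337, plus strand: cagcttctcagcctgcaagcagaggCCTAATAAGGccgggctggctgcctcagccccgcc
Acta2, MCAT, chr19:34255489-34255544, minus strand: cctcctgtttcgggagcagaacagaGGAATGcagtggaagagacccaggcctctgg
Lmod1, MCAT, chr1:135324658-135324713, plus strand: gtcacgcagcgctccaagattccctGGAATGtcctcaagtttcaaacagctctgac
Cald1, MCAT, chr6:34598326-34598381, plus strand: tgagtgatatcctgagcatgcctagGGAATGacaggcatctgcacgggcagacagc
Smtn, MCAT, chr11:3539484-3539539, minus strand: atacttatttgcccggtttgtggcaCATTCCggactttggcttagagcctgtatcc
The exact CArG box was in 1 of the 8 windows, 161 bases before the Myl9 start, against 1.47% of 32851 windows of the same length. Forms that differ from this pattern, or lie outside the 250 bases, were not searched for. MCAT was in 4 of the 8, against 12.6% of all windows. These matches describe the letters only, and neither motif overlapped the other.

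The contractile genes were expressed in the cultures over a wide range, and none of the 10 passed the test for a difference between IL-36β and untreated libraries. The test was limma on log2(FPKM + 0.5) with Benjamini-Hochberg adjustment over 12618 genes, those that reached an FPKM of 0.5 in 3 or more libraries, and the threshold was an adjusted p under 0.05. FPKM is a read count per kilobase of gene and per unit of sequencing depth, where depth is here the authors' size factor. All 10 members passed the filter on low values. Of all genes tested, 0.166% passed as higher and 0.0159% as lower with IL-36β, so few calls were made anywhere. The fitted values of 7 members lay below 0 and of 3 above, with a median log2 difference of -0.46, beside 0.0023 over all genes tested.

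The separation of libraries sorted the members into groups. Actg2, Myh11 and Cnn1 were lower in all 3 IL-36β libraries than in any untreated library, as were 7.24% of all genes tested. Smtn was higher in all 3, as were 8.95% of all genes. The other 6 members overlapped between groups. An unadjusted p under 0.05 in limma was reached by the same 4 separated members and by 10.4% of all genes.

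**Figure D1:**
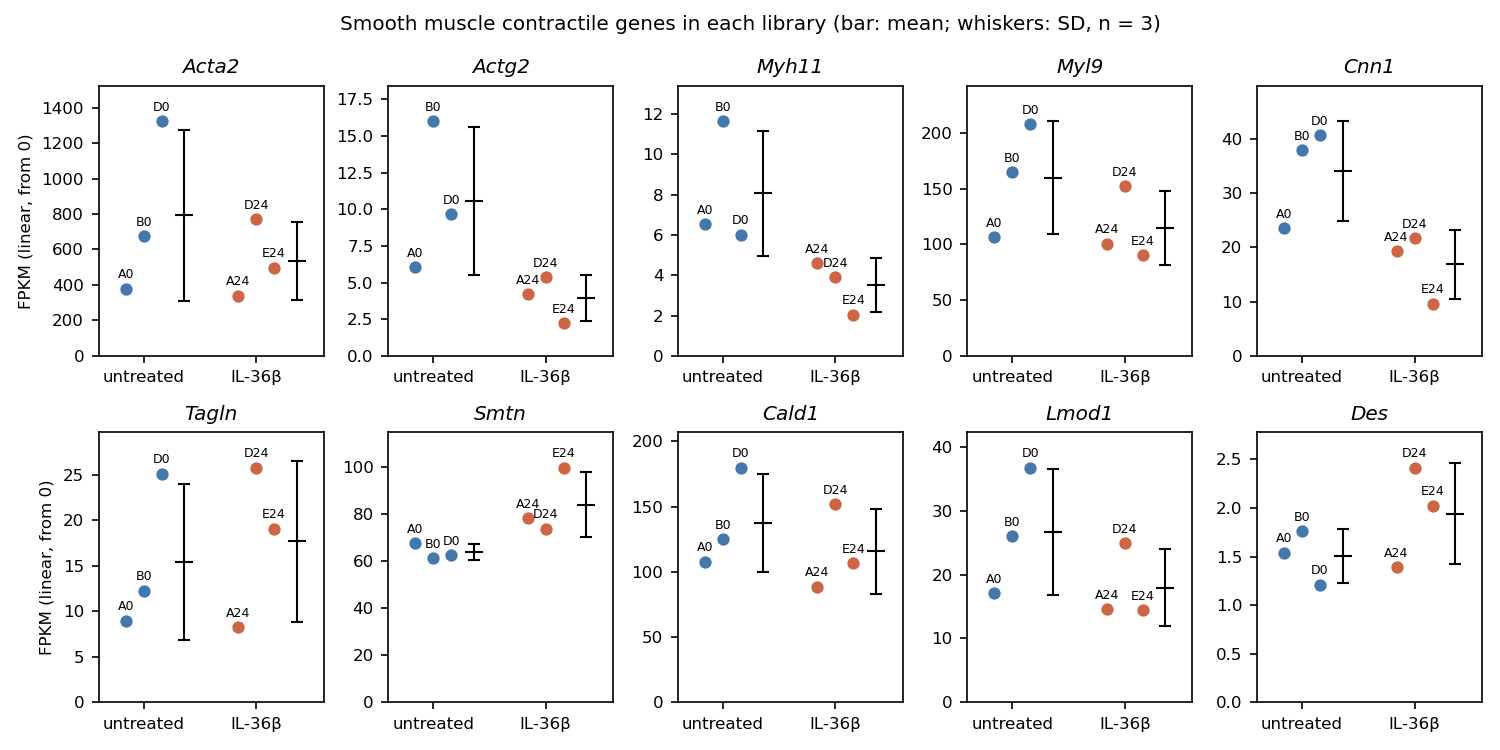
FPKM (linear axis from 0) of each contractile gene in the 3 untreated libraries (blue) and 3 IL-36β libraries (orange), with the mean and SD beside each group. Actg2, Myh11 and Cnn1 have no IL-36β library as high as any untreated one, Smtn has none as low, and the Acta2 values run from 340 in A24 to 1323 in D0.

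Per length, Acta2 was by far the most abundant member, with a mean of 664 FPKM over the 6 libraries and rank 39 among the genes tested. Myl9 (137 FPKM) and Cald1 (127) followed, and their ranges over the libraries overlapped. Smtn stood at 73.9 FPKM. Cnn1 (25.4), Lmod1 (22.3) and Tagln (16.6) overlapped in range, and Actg2 (7.25) and Myh11 (5.79) overlapped in range. Des was the least abundant at 1.72 FPKM, from 70 to 149 reads per library.

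The thin filament of smooth muscle is built from the actins of Acta2 and Actg2. Acta2, the vascular smooth muscle actin (ENSMUSG00000035783, chr19:34241090-34255336, minus strand), had 378, 675 and 1323 FPKM in A0, B0 and D0, and 340, 772 and 498 in A24, D24 and E24. D0 stood highest and A24 lowest, and the groups overlapped. The means were 792 ± 483 and 536 ± 219 FPKM (SD, n = 3), and the fitted fold was 0.728 (95% interval 0.339 to 1.56, limma adjusted p = 0.761). With D0 left out, the fitted log2 difference was 0.0057 in place of -0.46.

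Actg2, the enteric smooth muscle actin (ENSMUSG00000059430, chr6:83512905-83536265, minus strand), had 6.05, 16.01 and 9.65 FPKM in A0, B0 and D0. It had 4.22, 5.35 and 2.22 FPKM in A24, D24 and E24. All IL-36β libraries lay below all untreated ones, with B0 highest and E24 lowest. The fitted fold was 0.409 (0.220 to 0.761), the lowest of the 10 members, with a limma adjusted p of 0.324. In bulk RNA, fewer cells that express a gene and less of its RNA per cell cannot be told apart, and this holds for every member.

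Acta1, the skeletal muscle actin and not a member, had the same separation. It stood at 8.82, 11.02 and 14.4 FPKM in untreated libraries and 6.12, 6.89 and 4.90 with IL-36β, a fold of 0.548 with a limma adjusted p of 0.191. DESeq2 called Acta1 lower, with an adjusted p of 0.00596. It was singled out after its values were seen. Of the 11 skeletal and cardiac muscle markers, 7 (Myh1, Myh2, Myh4, Myh6, Myh7, Tnnt3 and Ckm) were at 0 in every library.

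Myosin was represented by its smooth muscle heavy chain and regulatory light chain. Myh11, the heavy chain (ENSMUSG00000018830, chr16:14194535-14291372, minus strand), had 6.54, 11.6 and 6.02 FPKM in A0, B0 and D0, and 4.60, 3.90 and 2.055 in A24, D24 and E24. The groups did not overlap, and B0 stood apart at the top. This was a fitted fold of 0.469 (0.280 to 0.785, limma adjusted p = 0.315). Its nearest values across the groups were those of D0 and A24, closer to each other than the untreated SD of 3.11 FPKM.

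Myl9, the regulatory light chain (ENSMUSG00000067818, chr2:156775420-156781658, plus strand), had 107, 165 and 208 FPKM in A0, B0 and D0. With IL-36β it had 100, 152 and 90.4 in A24, D24 and E24. A0 was low among the untreated libraries and D24 high among the IL-36β ones, so the groups overlapped. The fitted fold was 0.725 (0.461 to 1.14, limma adjusted p = 0.596).

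Among the actin-binding regulators, Cnn1 and Smtn separated the groups in opposite directions. Cnn1, calponin, which inhibits the myosin motor (ENSMUSG00000001349, chr9:22099216-22109630, plus strand), had 23.5, 37.9 and 40.6 FPKM in A0, B0 and D0. In A24, D24 and E24 it had 19.3, 21.7 and 9.59 FPKM. All IL-36β libraries lay below all untreated ones, E24 by the widest margin. The means were 34.0 ± 9.22 and 16.9 ± 6.41 FPKM (SD, n = 3), a fitted fold of 0.489 (0.288 to 0.831, limma adjusted p = 0.360).

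Smtn, smoothelin, a marker of contractile smooth muscle (ENSMUSG00000020439, chr11:3517523-3540612, minus strand), had 67.6, 61.4 and 62.7 FPKM in untreated libraries. With IL-36β it had 78.3, 73.8 and 99.7 FPKM in A24, D24 and E24. The untreated libraries were close together and all 3 IL-36β libraries lay above them. For Smtn the fitted fold was 1.30 (1.06 to 1.604, limma adjusted p = 0.391).

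Tagln, transgelin (SM22), which crosslinks actin (ENSMUSG00000032085, chr9:45929619-45936058, minus strand), had 8.95, 12.3 and 25.1 FPKM in A0, B0 and D0, and 8.27, 25.8 and 19.1 in A24, D24 and E24. The A and B libraries of both groups were low and the D and E libraries high, whichever the treatment. The fitted fold was 1.13 (0.525 to 2.45, limma adjusted p = 0.913). Tagln overlaps Pcsk7 by 108 bases and an antisense gene, Gm48529, by 3627, both on the other strand; Pcsk7 was at 8.13 to 10.9 FPKM. The labels do not say whether counting used strand, so reads from the overlap cannot be assigned with certainty.

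Cald1, caldesmon, an actin- and calmodulin-binding inhibitor of the motor (ENSMUSG00000029761, chr6:34598500-34775473, plus strand), had 108, 125 and 180 FPKM in A0, B0 and D0. It had 88.7, 152 and 107 FPKM in A24, D24 and E24, and the groups overlapped. Its fitted fold was 0.841 (0.564 to 1.25, limma adjusted p = 0.751). Cald1, Smtn, Lmod1 and Des overlap opposite-strand genes too, but none of those was above 0.296 FPKM in any library.

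Lmod1, leiomodin, which nucleates actin filaments (ENSMUSG00000048096, chr1:135324807-135368065, plus strand), had 17.1, 26.0 and 36.7 FPKM in A0, B0 and D0. It had 14.6, 24.9 and 14.4 FPKM in A24, D24 and E24. As for Myl9, D0 was highest and D24 lay among the untreated values. Lmod1 had a fitted fold of 0.690 (0.421 to 1.13, limma adjusted p = 0.585).

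Des, desmin, the muscle intermediate filament protein (ENSMUSG00000026208, chr1:75360329-75368579, plus strand), had 1.54, 1.76 and 1.21 FPKM in untreated libraries. With IL-36β it had 1.39, 2.41 and 2.02 FPKM in A24, D24 and E24. D24 and E24 were the highest of the 6 libraries and A24 lay within the untreated range. Des had a fitted fold of 1.21 (0.876 to 1.66, limma adjusted p = 0.653).

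**Figure D2:**
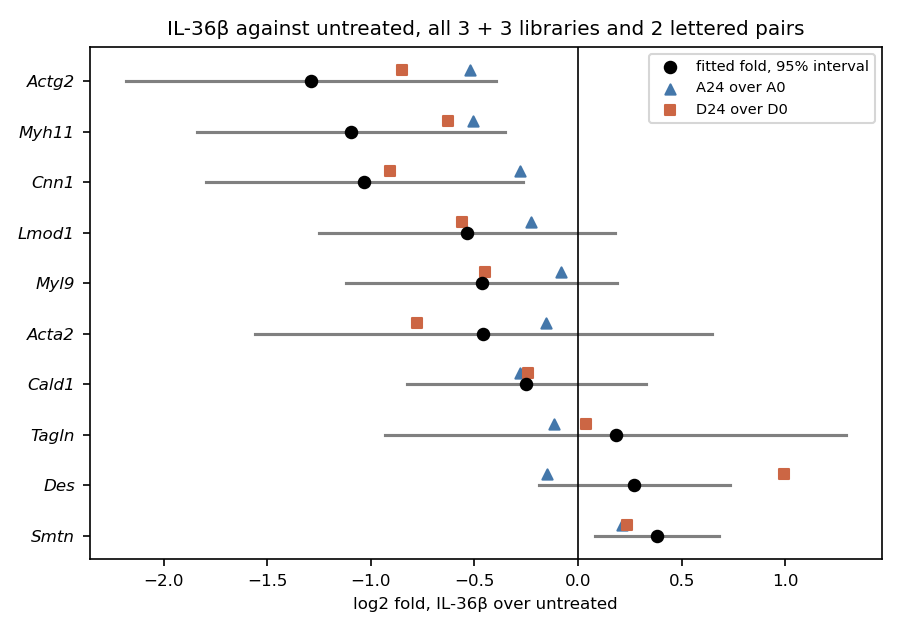
Log2 fold, IL-36β over untreated, for each contractile gene: black points and grey lines give the fit to all 6 libraries with its 95% interval, triangles A24 over A0 and squares D24 over D0. The intervals of Actg2, Myh11, Cnn1 and Smtn lie to one side of 0 before adjustment. The A pair is nearer 0 than the D pair for every member but Tagln and Cald1, and only slightly so for Smtn.

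A count model gave another answer for the 3 separated lower members. DESeq2 on the reads recovered from the FPKM called Actg2 (adjusted p = 0.00688), Myh11 (0.00447) and Cnn1 (0.0152) lower and no member higher. It called 0.793% of all genes lower and 1.27% higher. edgeR's quasi-likelihood test on the same reads called none of the 10, and 0.293% of all genes in either direction. In the authors' deposited table of 660 genes, Actg2 (p = 0.0223) and Myh11 (p = 0.0253) are listed as lower, both with an adjusted p of 0.999, and no other member is listed.

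The DESeq2 calls were lost in several fits to 5 libraries, while the fitted values stayed below 0 in each. Without B0, in which Actg2 and Myh11 were highest, DESeq2 called no member, and the same was found without E24, in which Actg2, Myh11 and Cnn1 were lowest. Without D0 or without A24 it called only Actg2, and without A0 or without D24 it called all 3. Lower calls over all 12618 genes also fell in these fits, to 18 without B0 and 42 without E24, against 100 with all libraries. They numbered 75 without A0, 120 without D0, 157 without A24 and 150 without D24. The lost calls without B0 and without E24 were thus not particular to the members. The DESeq2 log2 difference of Actg2 was -1.44 with all libraries, -1.004 without B0 and -1.15 without E24. That of Myh11 was -1.21 with all, -0.84 without B0 and -0.93 without E24, but -1.38 without D0 and -1.45 without A24. Its call was lost in all 4 of these fits, with smaller and with larger fitted values. That of Cnn1 was -1.02 with all, -0.93 without B0 and -0.74 without E24. Leaving out any library in limma gave no call among the members. Those limma fits called only 1 to 7 genes higher and 0 to 1 lower of all 12618, so they say little about the members.

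The values of most members differed widely among libraries of the same treatment. On the log2 scale, the SD of the untreated libraries was above the 90th percentile of all genes tested for 7 of the 10 members. The exceptions were Smtn (percentile 21.0), Des (68.6) and Cald1 (89.4). Acta2 had the widest spread, with 3.50 times as much in D0 as in A0. D0 was the highest of the 6 libraries for 5 members (Acta2, Myl9, Cnn1, Cald1 and Lmod1), and E24 the lowest for 5 (Actg2, Myh11, Myl9, Cnn1 and Lmod1).

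**Figure D3:**
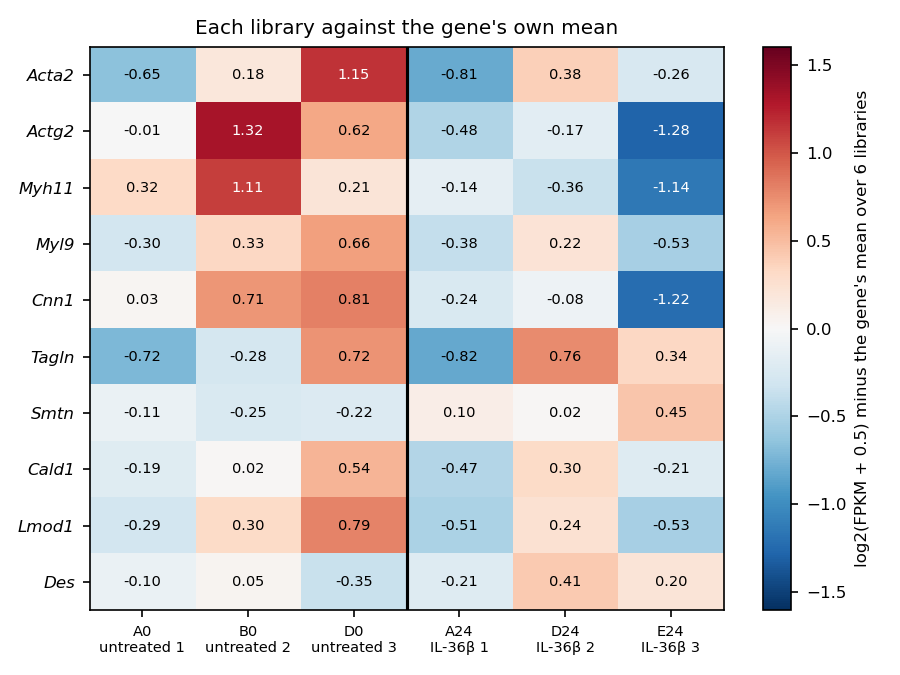
Log2(FPKM + 0.5) of each contractile gene in each library minus that gene's mean over the 6 libraries, with untreated libraries left of the black line. Actg2, Myh11 and Cnn1 are above or near 0 in the untreated libraries and below 0 with IL-36β, with E24 at -1.28, -1.14 and -1.22, while Acta2, Tagln, Myl9, Cald1 and Lmod1 are highest in D0 or D24.

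Several members followed each other across libraries within as well as between treatments. Over the 6 libraries, Myl9 and Lmod1 had a Pearson r of 0.993 on the log2 scale (Spearman rho 1.0), and Acta2 and Cald1 an r of 0.964 (rho 0.943). With each group's mean removed, these values were 0.990 and 0.960. Actg2 had an r of 0.947 with Cnn1 and 0.943 with Myh11, which were 0.867 and 0.847 with the group means removed. Acta2 and Myh11 had an r of 0.186. Some other pairs lay between: r was 0.856 for Myl9 and Cnn1 (rho 0.943), 0.820 for Cnn1 and Lmod1 (rho 0.943) and 0.793 for Actg2 and Myl9. Tagln had an r of 0.825 with Acta2 and 0.820 with Cald1, but 0.036 with Cnn1, -0.024 with Actg2 and -0.350 with Myh11. Whether the members form separate sets was not tested. Smtn ran opposite to Cnn1, with an r of -0.978. These are descriptions over the same 6 libraries, so all pairs of genes share the split by treatment, each library's size factor and the weight of D0 and E24.

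The library letters marked part of the spread. Tagln was 2.46 times as high in the D and E libraries as in A and B (1.87 to 3.23, limma adjusted p = 0.0168), in a fit with treatment and this library set together. It was the only member called for the set, beside 1.74% of all genes. Acta2 was 2.18 times as high (1.37 to 3.48, adjusted p = 0.120), Cald1 1.49 times and Lmod1 1.49 times, and these did not pass. What the letters stand for is not labelled, and the sets were drawn from an earlier look at these data. The sets split the treatments unevenly, with A24 alone beside A0 and B0, and D0 alone beside D24 and E24.

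With the set as a term, limma called none of the 10 members for IL-36β, against 0.808% of all genes. DESeq2 with that term called none either, against 3.45% of all genes. The fitted values did move: in limma with the term the members' median log2 difference was -0.67, and that of Acta2 -0.83 in place of -0.46. An unadjusted p under 0.05 was reached as lower by 6 members with the term, against 3 without it. Over all genes, in either direction, it was reached by 1717 with the term and 1308 without. Within the A and B libraries, 9 members were lower with IL-36β, as were 50.5% of all genes, and the members' median log2 difference was -0.46, beside -0.0026 over all genes. Within D and E, 8 were lower, as were 49.8% of all genes, with a median of -0.88 beside 0.00094. These within-set values have no test of their own. Of the libraries that share a letter, A24 was below A0 for 9 members (49.6% of all genes) and D24 below D0 for 7 (51.1%). In both pairs 7 were lower, as were 29.2% of all genes. The 7 were Acta2, Actg2, Myh11, Myl9, Cnn1, Cald1 and Lmod1.

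Endothelial cells also make non-muscle versions of these proteins, and these gave a reference within each library. Of 23 listed relatives, 16 passed the filter and none passed the limma test, with a median log2 difference of 0.16. Actb, the cytoplasmic β-actin (fold 1.04, limma adjusted p = 0.926), and Actg1, the cytoplasmic γ-actin (1.05, adjusted p = 0.923), were the most abundant. Acta2 stood at 36.2%, 55.1% and 84.1% of the Actb level in A0, B0 and D0, and at 29.0%, 52.2% and 37.6% in A24, D24 and E24. These ranges overlapped.

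Myh11 stood at 3.53%, 6.68% and 2.86% of the level of Myh9, a non-muscle myosin heavy chain, in untreated libraries. With IL-36β it stood at 2.36%, 1.81% and 0.795%. Cnn1 stood at 14.7%, 19.8% and 16.7% of its relative Cnn2, and at 11.5%, 9.89% and 4.72% with IL-36β. For these genes and for Actg2 beside Actg1, all IL-36β libraries lay below all untreated ones. These are the same 3 members that separated on their own levels. Myl9 was near the level of the non-muscle light chain Myl12a, at 67.1% to 109% in untreated and 41.2% to 81.7% in IL-36β libraries. Des stood below 0.330% of vimentin (Vim) in each library.

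**Figure D4:**
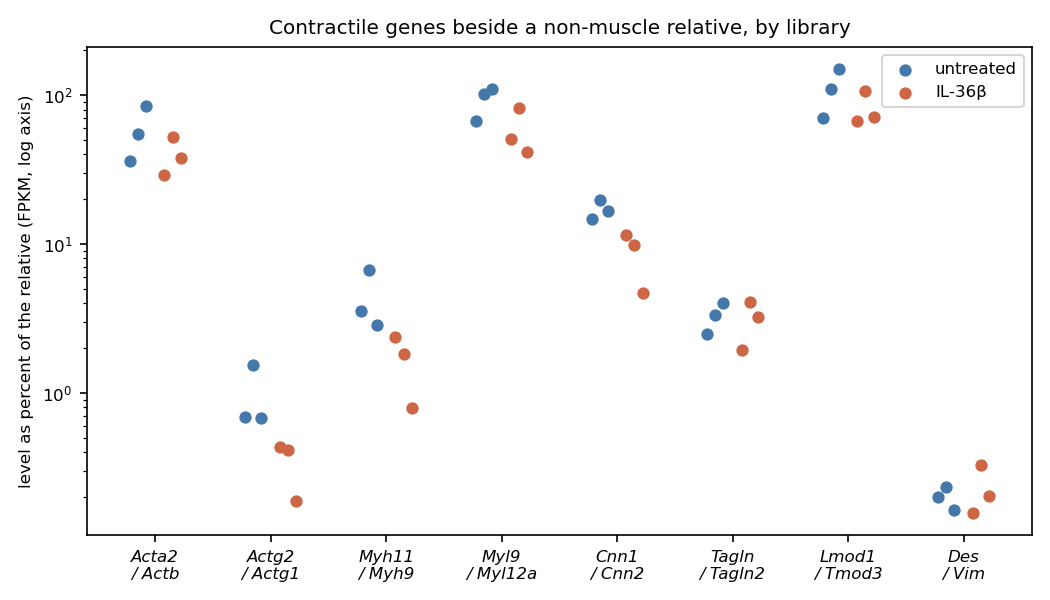
Level of 8 contractile genes as a percent of a non-muscle relative in the same library, from FPKM on a log axis, with one point per library (untreated blue, IL-36β orange; A0, B0, D0 and A24, D24, E24 from left to right). Actg2, Myh11 and Cnn1 separate the groups, while Acta2, Myl9, Tagln, Lmod1 and Des overlap.

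Regulators of the smooth muscle programme were measured from a list of 22 symbols, of which 21 were in the table and 19 passed the filter. None passed the limma test, and the median log2 difference was -0.018. Tgfbr2, a TGF-β receptor (fold 1.05, limma adjusted p = 0.876), and Rhoa, a small GTPase that acts on myosin phosphorylation (1.02, adjusted p = 0.930), were the most abundant. Srf had 28.1, 30.6 and 47.2 FPKM in untreated libraries and 26.4, 37.9 and 39.0 with IL-36β, highest in D0. Myocd, the myocardin coactivator, stayed below the filter, at 0.383 to 0.466 FPKM untreated and 0.227 to 0.261 with IL-36β, and was not tested. Tgfb1, a cytokine gene that can induce contractile genes, had 22.3 to 30.6 FPKM untreated and 34.1 to 49.6 with IL-36β, a fold of 1.62 (limma adjusted p = 0.231). DESeq2 called Tgfb1 higher (adjusted p = 0.00704) and no other regulator. Srf, Myocd and Tgfb1 were chosen after their values were seen.

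Other smooth muscle genes were described from a list of 22, of which 14 passed the filter. None passed the limma test, 10 had fitted values below 0 and the median log2 difference was -0.32. Csrp1, a LIM protein (fold 0.994, limma adjusted p = 0.994), and Tpm1, a tropomyosin that lines the actin filament (1.06, adjusted p = 0.905), were the most abundant. Fhl1, another LIM protein, had 23.6, 41.0 and 31.4 FPKM in A0, B0 and D0, and 18.9, 15.5 and 8.29 in A24, D24 and E24. Its fitted fold was 0.440 (limma adjusted p = 0.264, DESeq2 adjusted p = 0.00154). Itga8, an integrin chain, had 4.08 to 5.01 FPKM untreated and 2.65 to 3.38 with IL-36β, a fold of 0.696 (limma adjusted p = 0.231, DESeq2 adjusted p = 0.0213). DESeq2 called these 2 genes of the list lower and none higher. Fhl1 and Itga8 were chosen after their values were seen. Fhl1 had B0 highest and E24 lowest, as did Actg2 and Myh11.

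The 6 genes whose log2 level followed the mean of the members most closely over the 6 libraries, of 6991 with a mean of at least 5 FPKM, were Necap1 (Pearson r 0.988), Slc39a6 (0.986), Palld (0.983), Brms1l (0.981), Nup205 (0.980) and Anln (0.976). They were taken for their high r from many genes over few libraries, so these r values are not a test. Palld encodes palladin and Anln encodes anillin, both actin-binding proteins. Whether genes that follow the members tend to be of this kind was not tested. None of the 6 passed the limma test (adjusted p 0.528 to 0.763). Necap1, with the highest r, had 13.3, 14.3 and 14.8 FPKM in untreated libraries and 12.4, 14.0 and 12.6 with IL-36β. Palld had 30.2, 38.9 and 48.7 FPKM in untreated libraries and 25.2, 38.1 and 26.0 with IL-36β.

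Endothelial markers were abundant, as the label of the cultures has it, and defining markers of other cell types were low or at 0. All 12 endothelial markers passed the filter, with a summed level of 2479 to 2869 FPKM untreated and 2585 to 3239 with IL-36β. The endothelial sum was 2869, 2552 and 2479 FPKM in A0, B0 and D0, and 2836, 2585 and 3239 in A24, D24 and E24. It ran opposite to the mean log2 level of the members over these 6 libraries (r -0.906), being lowest in D0 and highest in E24. The same r was 0.855 for the skeletal and cardiac muscle markers, nearly all Acta1, and 0.146 for the mural markers without Mcam. For the remaining lists r was -0.809 (astrocyte), -0.735 (neuron), -0.503 (oligodendrocyte), -0.296 (fibroblast) and -0.162 (microglia and macrophage). The neuron sum was at most 0.255 FPKM, and what any of these r values reflects was not tested. The 11 pericyte and mural markers summed to 115 to 165 FPKM untreated and 103 to 137 with IL-36β, nearly all from Mcam, which endothelial cells also express. The other 10 mural markers summed to 6.35 to 7.74 FPKM untreated and 5.06 to 7.49 with IL-36β, where Rgs5 was at most 0.315 FPKM and Higd1b was at 0 in 5 of 6 libraries. Pdgfrb, the receptor that defines mural cells, had 2.46 to 2.97 FPKM untreated and 2.08 to 3.39 with IL-36β. The part of mural or endothelial cell content in the levels of the contractile genes was not tested.

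Fibroblast markers summed to 1.94 to 2.45 FPKM untreated and 2.11 to 4.40 with IL-36β, with Dpt at 0 throughout. Col1a1 ran from 0.0491 FPKM in A24 to 1.22 in E24, and Col1a2 from 0.0892 in A0 to 1.48 in E24. Astrocyte markers summed to 3.83 to 5.31 and 3.56 to 4.95, with Aqp4 and Slc1a3 at 0. Nearly all of that sum was Gja1 (2.85 to 3.76 FPKM over the libraries) and Aldh1l1 (0.432 to 1.63). Microglia and macrophage markers summed to 6.98 to 7.80 and 6.87 to 9.43. All but at most 0.356 FPKM of this sum was Cd68. Neuron markers stayed at or below 0.255 in sum, with Snap25 at 0, and oligodendrocyte markers summed to 9.98 to 11.97 and 11.05 to 16.9, with Mobp at 0. All but at most 0.266 FPKM of that sum was Cnp. The part of these cells in the results was not tested. The reads recovered over all genes numbered 15180389 to 19544689 per library.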

How the data were processed

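RNA was sequenced from 3 untreated and 3 IL-36β libraries with a stranded mRNA kit, per the labels' protocols. Tools in the submitters' processing notes are DESeq2 1.38.3, featureCounts 1.50-p3, StringTie, HISAT2 2.05 and fastp; the build is GRCm38, and no settings are given. The authors deposited FPKM for 54532 genes. A second deposited table, of 660 genes, has read counts, normalized counts (a signal scale), log2 fold changes and p-values; only the signs and p-values of its comparison were used. A further 8 columns, from 4 libraries with no matching sample label, were not used.

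FPKM times gene length and a divisor per library gave whole reads in 100% of values, within 0.01, equal to the deposited counts in all 660 genes. The recovered reads over all genes came to 15790499, 19544689 and 15439602 in untreated and 15180389, 16488697 and 18938592 in IL-36β libraries. A gene of 1 kb had 15.4 to 20.3 reads per FPKM. Reads not assigned to genes are not in these values.

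Values of log2(FPKM + 0.5) were tested two-sided in limma 3.58.1 under R 4.3.3, with the prior variance trended on level. The 12618 genes that reached 0.5 FPKM in 3 or more of 6 libraries entered, at a Benjamini-Hochberg adjusted p under 0.05. It was tested on simulated data. Folds come from this log2 scale, and the pseudocount shrinks those of low genes. Alternatives were other pseudocounts, filters, scalings and priors, edgeR 4.0.16 and DESeq2 1.42.0 on recovered reads, blocks by title number and letter, the library set as a term, and leaving out libraries. DESeq2 and edgeR with the set term, and DESeq2 without each library, were added after seeing the data.

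The members, the lists of regulators, other smooth muscle genes and non-muscle relatives, and the markers were chosen with earlier results of these data known. Named genes were all members; from each list, up to 4 past the threshold or else the 2 most abundant; markers at 0 in all libraries; and the 6 genes most like the members' mean. Other genes were named after their values were seen: Acta1, Srf, Myocd, Tgfb1, Fhl1, Itga8, Mcam, Rgs5, Higd1b, Pdgfrb, Col1a1, Col1a2, Gja1, Aldh1l1, Cd68, Cnp, the paired relatives and the genes that overlap Tagln. The 8 pairs of members and relatives were also set after the values were seen. List symbols were matched directly, or for 1 (Mkl2 for Mrtfb) through RefSeq synonyms.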

Additional observations from a re-analysis of the deposited data

How the results depend on the processing

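No member passed the limma test, in either direction, in any of the 18 other limma fits, nor in edgeR. Over all genes, those limma fits called 0 to 85 higher and 0 to 17 lower. The fit with no filter and that with only A0, D0, A24 and D24 called no gene at all. The count of members lower moved from 0 to 3 in DESeq2, and with DESeq2 and one library left out it ranged from 0 to 3. The median log2 difference of the members ranged from -0.81 (DESeq2 without D24) to -0.14 (DESeq2 without D0). The fitted sign of Acta2 reversed without D0, to 0.0057 in limma and 0.018 in DESeq2, and ranged from -0.90 to 0.0057 over the limma fits that leave out a library. The sign of Tagln reversed with the letter as a block and with only A0, D0, A24 and D24 (-0.037 each), with the library set as a term (-0.25 in limma, -0.26 in DESeq2 and -0.26 in edgeR), without A0 (-0.13, and -0.084 in DESeq2) and without D24 (-0.15, and -0.18 in DESeq2); leaving out a library in limma gave -0.15 to 0.64. The other 8 members kept their sign in all 28 alternatives. Deviations of same-numbered libraries from their group means correlated at 0.21, -0.14 and 0.21 for title numbers 1 to 3. Those of same-letter libraries correlated at 0.21 for A, which is also number 1, and 0.28 for D. These few values cannot settle whether numbers or letters pair the libraries. With the number as a replicate block no member was called, the median stayed at -0.46, and 12 genes were higher and 1 lower over all genes, against 21 and 2. Over all settings, 0 to 260 genes were called higher and 0 to 175 lower. Des had 70 to 149 reads and Actg2 63 to 505 reads per library, so counting error weighs most on these.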
